A study of Drosophila melanogaster with 6 samples.

Results

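The tetraspanin genes of Drosophila melanogaster were followed in wing disc cells that expressed RasV12 and in control cells. Members were the rows of the count table whose symbol began with Tsp and a digit, which gave 31 genes of 14233. RasV12 encodes a permanently switched-on Ras GTPase, and the wing imaginal disc is the larval tissue from which the wing blade and notum develop. The RasV12 group (3 libraries) carried Ap>Gal4, myrT, UAS-RasV12 and TubGal80ts, and the control group (3 libraries) carried Ap>Gal4, myrT, TubGal80ts and the element written GFP-i. Larvae of both groups grew for 6 days at 18 °C, with the temperature-sensitive Gal80 holding the driver off, and for 3 days at 29 °C, and wandering third-instar discs were dissected. The apterous driver is active in the dorsal compartment. Discs were dissociated with trypsin and dorsal cells expressing the transgenes were sorted. RNA was read with a kit that sequences the 3' ends of transcripts. Whether the replicates were separate pools of animals is not stated, and p-values therefore measure only the spread between these samples, which may be technical.

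Tetraspanins are small proteins that cross the membrane several times and carry a large extracellular loop. They gather integrins, proteases and receptors into membrane domains, and they are abundant on endosomes and on vesicles released from cells. In flies the family includes the TspanC8 subgroup, which escorts the Notch-cleaving metalloprotease Kuzbanian to the cell surface, and Tsp2A, a component of the smooth septate junctions of the gut. A large share of the fly genes lies in a tandem array on chromosome arm 2R, whose members are called Tsp42Ea to Tsp42Er.

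Libraries held 11070295 to 15581752 counts, of which 8903 to 11727 fell on the 31 members. The floor, 3 counts in a library, was 0.177 to 0.281 CPM (counts scaled to a common library size, with TMM correction), which covers counting error only. The driver gene ap, which defines the dorsal compartment, averaged 236 ± 30.3 CPM in RasV12 cells and 271 ± 40.98 CPM in GFP-i cells (SD, n = 3). Of 7 wing disc epithelium markers 1 rose and 3 fell, with sums of 2270 to 2679 CPM in RasV12 libraries and 2969 to 3287 CPM in GFP-i libraries, and the wing pouch gene nub averaged 12.6 CPM in RasV12 cells and 151 CPM in GFP-i cells. Of 4 dorsal markers 1 rose and 1 fell. Markers of other cell types were detected, and some moved with the genotype. Summed haemocyte markers (7 matched, 2 of 5 tested fell) spanned 14.15 to 18.7 CPM in RasV12 libraries and 19.8 to 34.1 CPM in GFP-i libraries. Summed muscle precursor markers (8 matched, 4 of 7 tested fell) spanned 61.0 to 78.9 CPM in RasV12 libraries and 84.9 to 127 CPM in GFP-i libraries. In RasV12 libraries this sum was largely Mef2, at 49.5 ± 3.76 CPM in RasV12 cells and 39.3 ± 3.84 CPM in GFP-i cells. The median log2 ratio of the 7 tested muscle precursor markers was -2.04, and Him had the lowest, at -3.44. Tracheal markers summed to 596 to 678 CPM in RasV12 libraries and 525 to 631 CPM in GFP-i libraries. Of these 5 genes btl, serp and verm rose, while trh and vvl, at log2 ratios of -0.58 and -0.46, were lower in every RasV12 library and did not pass. Single markers of these lists, He, Hand and Fbp1, had 0 counts in the 3 RasV12 libraries. In GFP-i libraries they were near the floor too, at no more than 0.177, 0.076 and 0.295 CPM. Other markers were present, with srp at 6.24 to 6.68 CPM and Lsp1beta at 10.03 to 15.8 CPM in RasV12 libraries. In GFP-i libraries srp and Lsp1beta stood at 5.72 to 11.03 CPM and 5.64 to 9.52 CPM. Of 8 neuronal and glial markers 1 rose and 1 fell, and the 1 tested fat body marker did not pass. The part of these cells in the tetraspanin differences was not tested, and in bulk samples fewer cells of a type and less RNA per cell cannot be told apart.

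RasV12 cells had more RNA of some tetraspanins and less of others. Tsp42El rose 5.09-fold, Tsp5D 3.29-fold, Tsp29Fa 2.52-fold, Tsp42Ee 1.72-fold and Tsp39D 1.63-fold, while Tsp42Ei was 3.81-fold lower in RasV12 cells, Tsp26A 3.14-fold lower and Tsp74F 1.94-fold lower. Thus 5 of 26 tested members rose, 3 fell and 18 did not pass (edgeR quasi-likelihood test, adjusted p under 0.05). The background over all 9134 tested genes was 14.8% called, made up of 9.15% that rose and 5.68% that fell, and the share among tested tetraspanins was 30.8%. Among genes with a mean of at least 10 CPM, 5 of 11 members changed (45.5%), against 18.4% of all tested genes at that level. The median log2 ratio (log2 fold change of RasV12 over GFP-i) was 0.25 for the tested members and 0.02 for all tested genes, with a positive value in 20 of 26 members (76.9%) and in 51.7% of all tested genes. The members' median was 0.11 without GFP-i library 3 and 0.082 with plain library-size scaling. The median of all tested genes was then -0.034 and -0.14 in the same order. The other 5 members had counts too low to test. Tsp42Ei passed the low-count filter only through its GFP-i libraries. Tsp5D and Tsp42Eg reached the filter's level in 3 RasV12 libraries and in 2 GFP-i libraries, and Tsp2A and Tsp42Ej in 3 and 1. Tsp42Ek and Tsp42Ep reached it in 2 RasV12 libraries and in 3 GFP-i libraries, and Tsp42Eh in 1 and 3. The counts of members that passed are therefore a description. The authors' deposited table marked 3 members as higher (Tsp29Fa, Tsp42El and Tsp5D) and 2 as lower (Tsp26A and Tsp42Ei), and did not mark Tsp42Ee, Tsp74F and Tsp39D, listed there with adjusted p-values of 1.1e-05, 9.8e-08 and 0.0198. Their unshrunken log2 fold changes there were 0.75, -0.99 and 0.67. Those of the marked members were larger in absolute value, the smallest being 1.30 for Tsp29Fa. The rule behind the marks is not stated.

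**Figure D1:**
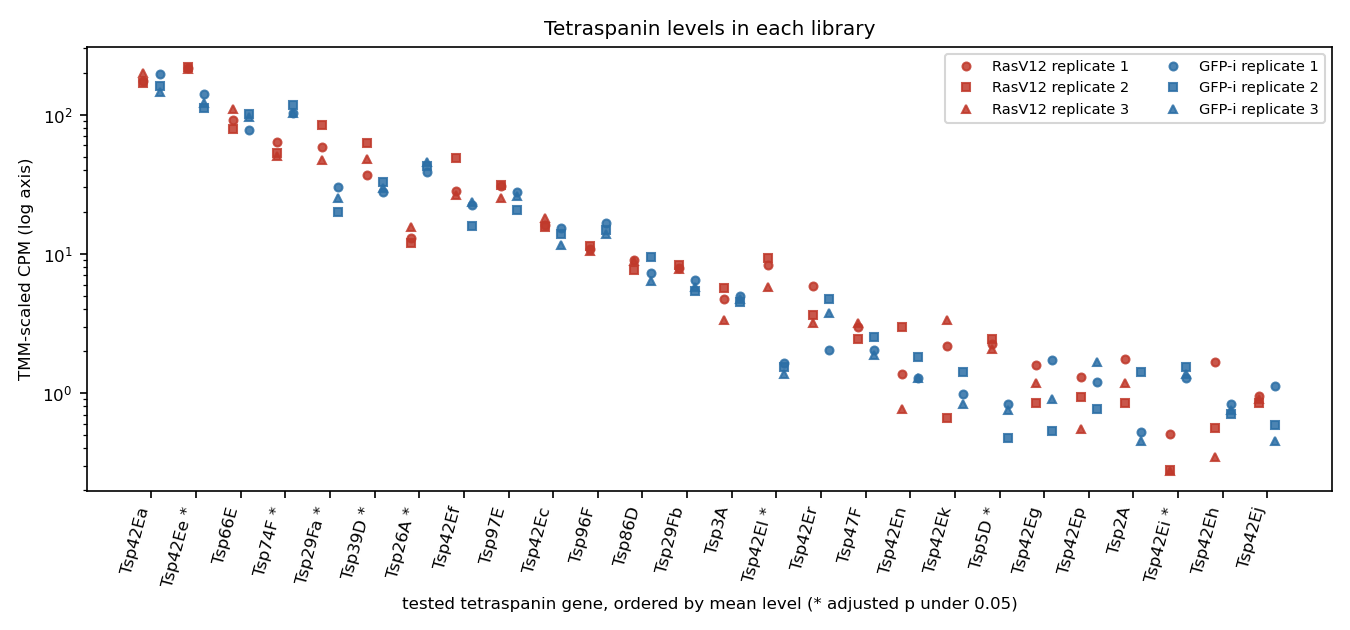
Levels of the 26 tested tetraspanin genes in each library, in TMM-scaled CPM on a log axis, ordered by mean level, with RasV12 libraries (red) left of GFP-i libraries (blue). Tsp42Ea and Tsp42Ee are the most abundant members, and stars mark the 8 genes that passed the test.

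The family was dominated by a few genes. Since reads came from transcript ends, CPM was not divided by transcript length. Tsp42Ea, Tsp42Ee, Tsp66E and Tsp74F together took 67.2 ± 4.48% of tetraspanin counts in RasV12 libraries and 70.25 ± 1.05% in GFP-i libraries (SD, n = 3), and Tsp42Ea and Tsp42Ee stood above 92.3% and 92.2% of all tested genes in mean level. The summed level of the 31 members was 790.2, 834 and 804 CPM in RasV12 libraries, against 731, 691 and 675 CPM in GFP-i libraries. With this TMM scaling the groups did not overlap, and the ratio of means was 1.16. The separation depended on the scaling, since members took 10885 of 15093162 raw counts in RasV12 library 1. In GFP-i library 1 members took 9714 of 12650093, a larger part, so by plain library size the groups overlapped. Within the members' counts the share of Tsp42Ee was 26.6 ± 0.475% in RasV12 libraries and 17.9 ± 1.60% in GFP-i libraries, and the share of Tsp74F was 6.86 ± 0.990% and 15.4 ± 1.52% in the same order. Tsp42Ea took 22.3 ± 2.21% in RasV12 libraries and 23.8 ± 2.54% in GFP-i libraries, a difference within the spread between replicates. Tsp42Ee was therefore the most abundant member in every RasV12 library, and Tsp42Ea in every GFP-i library.

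**Figure D2:**
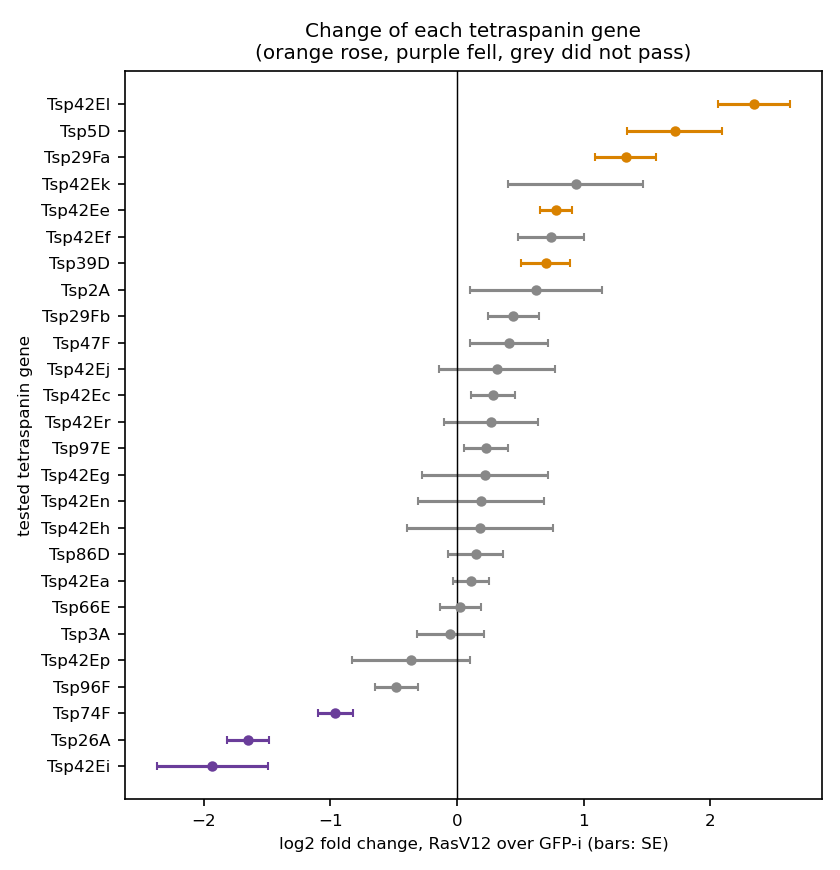
Log2 fold change of RasV12 over GFP-i for each of the 26 tested members, with the standard error as bars. The values run from -1.93 for Tsp42Ei to 2.35 for Tsp42El, and 18 grey genes did not pass the test.

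The TspanC8 subgroup comprises Tsp26A, Tsp3A and Tsp86D, and its proteins act in the maturation of Kuzbanian, the metalloprotease that cuts Notch after ligand binding. Tsp26A (FBgn0031760; 2L, 6000228 to 6003738, plus strand, dm6) stood at 12.99, 11.9 and 15.5 CPM in RasV12 libraries, against 38.9, 42.8 and 45.7 CPM in GFP-i libraries. All RasV12 libraries lay far below all GFP-i libraries, with a log2 ratio of -1.65 ± 0.17 (SE, 3 libraries a group, edgeR adjusted p = 1.3e-04). Tsp3A stood at 4.72, 5.72 and 3.33 CPM in RasV12 libraries and at 4.96, 4.48 and 4.76 CPM in GFP-i libraries. These ranges overlapped, and the log2 ratio of -0.05 had a 95% interval of -0.65 to 0.54 (edgeR adjusted p = 0.927). Tsp86D stood at 9.002, 7.68 and 8.94 CPM in RasV12 libraries and at 7.22, 9.55 and 6.35 CPM in GFP-i libraries, with a log2 ratio of 0.15 (interval -0.34 to 0.64, edgeR adjusted p = 0.711). For these 2 genes the groups overlapped, and the signs of both small values turned under some alternatives, that of Tsp86D also with plain library-size scaling (-0.02).

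Tsp26A thus made up a smaller part of the subgroup in RasV12 cells. Its share of TspanC8 counts was 48.6% (95% Wilson interval 43.6 to 53.7), 47.0% (41.2 to 53.0) and 55.9% (51.0 to 60.6) in RasV12 libraries, against 76.1% (72.8 to 79.2), 75.3% (72.5 to 77.9) and 80.5% (77.5 to 83.1) in GFP-i libraries. The intervals cover counting error only, and none of a RasV12 library overlapped one of a GFP-i library. The summed level of the 3 genes was 26.6 ± 1.24 CPM in RasV12 libraries and 54.9 ± 3.31 CPM in GFP-i libraries (SD, n = 3). The end of Tsp26A overlaps Gal on the other strand by 165 bases, and Gal had a mean of 3.67 counts per library.

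**Figure D3:**
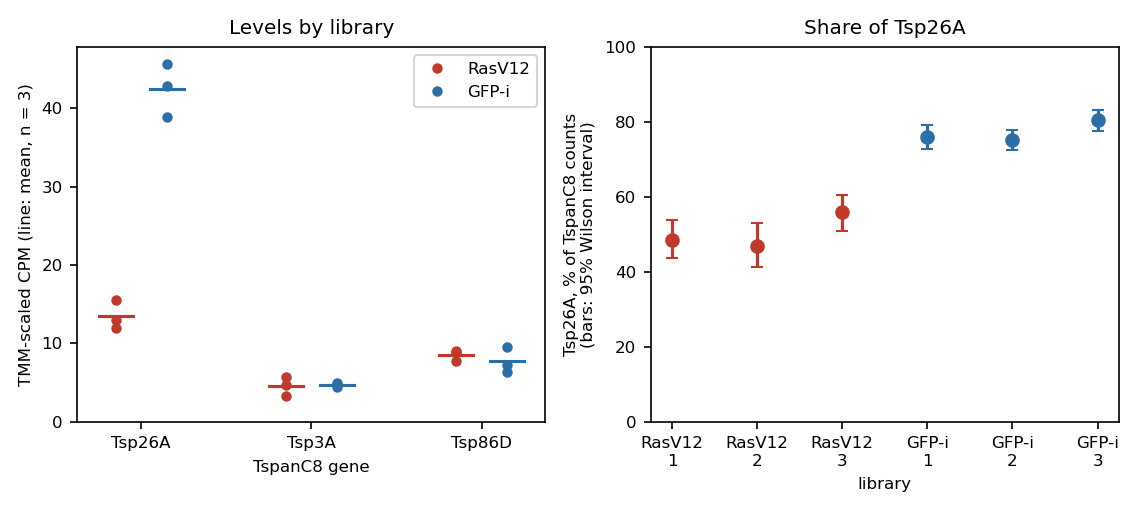
Left, levels of the TspanC8 genes in each library in TMM-scaled CPM, with the mean of 3 libraries as a line. Right, the share of Tsp26A in the counts of the 3 genes by library with 95% Wilson intervals, 47.0 to 55.9% in RasV12 libraries and 75.3 to 80.5% in GFP-i libraries.

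In the list of ADAM metalloproteases and Notch processing genes, 2 of 16 members rose, 0 fell and 14 did not pass, a called share near the 14.8% of all tested genes. The median log2 ratio was 0.25, against 0.02 over all tested genes, and it was 0.11 with RasV12 library 3 and GFP-i library 2 both removed and 0.088 with plain library-size scaling, which moved the median of all genes by -0.16. The Notch ligand gene Dl averaged 1042 ± 76.8 CPM in RasV12 cells and 484 ± 32.8 CPM in GFP-i cells (SD, n = 3), a log2 ratio of 1.11 ± 0.12 (SE; edgeR adjusted p = 2.1e-04). The ubiquitin ligase gene neur, whose product promotes ligand endocytosis, rose by 0.67 ± 0.16 (edgeR adjusted p = 0.019), which no longer passed without RasV12 library 1, GFP-i library 1 or GFP-i library 3 (adjusted p = 0.084, 0.083 and 0.069), with plain library-size scaling (adjusted p = 0.056) and with RasV12 library 3 and GFP-i library 2 both removed (adjusted p = 0.103). Dl alone rose without RasV12 library 1, GFP-i library 1 or GFP-i library 3. The receptor gene N and the gamma-secretase gene Psn stood at log2 ratios of 0.36 and 0.49 and did not pass (edgeR adjusted p = 0.063 and 0.092). The gene kuz, encoding the TspanC8 partner Kuzbanian, averaged 445 ± 59.9 CPM in RasV12 cells and 405 ± 41.9 CPM in GFP-i cells, with a log2 ratio of 0.14 and an interval of -0.17 to 0.44 (edgeR adjusted p = 0.573). It was singled out as the partner of Tsp26A and not by the naming rule.

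The Tsp42E array spans 73438 bases of 2R (6992676 to 7066113, dm6) and held 15 members in the count table, 13 of them tested. Of these 13 tested genes 2 rose, 1 fell and 10 did not pass, with positive fold changes in 11. Of all tested genes 14.8% were called and 51.7% had positive fold changes. The summed level of the 15 genes was 457, 473 and 471 CPM in RasV12 libraries, against 386, 317 and 315 CPM in GFP-i libraries, so the groups did not overlap. Levels along the array differed widely, since Tsp42Ea averaged 180.03 ± 15.4 CPM in RasV12 cells and 167 ± 24.9 CPM in GFP-i cells, while Tsp42Ed and Tsp42Eo had 0 to 7 counts per library. The array took 57.7 ± 0.986% of tetraspanin counts in RasV12 libraries and 48.45 ± 3.84% in GFP-i libraries (SD, n = 3). Most of the difference in sum and share lay in Tsp42Ee alone. It averaged 215 ± 3.72 CPM in RasV12 cells and 125 ± 15.1 CPM in GFP-i cells, with shares of 26.6% and 17.9%.

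Tsp42Ee (FBgn0029506; 2R, 7012254 to 7018362, plus strand) stood at 214, 219 and 212 CPM in RasV12 libraries, against 141, 112 and 122 CPM in GFP-i libraries. The RasV12 libraries lay within a narrow range above every GFP-i library, and the log2 ratio was 0.78 ± 0.13 (SE; edgeR adjusted p = 0.0028). Tsp42El (FBgn0033134; 2R, 7045769 to 7048538, plus strand) stood at 8.28, 9.28 and 5.75 CPM in RasV12 libraries, against 1.65, 1.53 and 1.36 CPM in GFP-i libraries. It had the largest rise of the tested members, a log2 ratio of 2.35 ± 0.29 from 83 to 114 counts in RasV12 libraries and 18 to 26 counts in GFP-i libraries (edgeR adjusted p = 4.8e-04). Tsp42Ei (FBgn0033130; 2R, 7035125 to 7036949, plus strand) went the other way, with 7, 3 and 4 counts in RasV12 libraries, against 17, 26 and 18 counts in GFP-i libraries. Tsp42Ei passed the low-count filter only through its GFP-i libraries, so its lower value is a description. The groups did not overlap at this low level, and the log2 ratio was -1.93 ± 0.44 (edgeR adjusted p = 0.016). This result no longer passed without RasV12 library 3, GFP-i library 2 or GFP-i library 3 (adjusted p = 0.065, 0.060 and 0.065) and with RasV12 library 3 and GFP-i library 2 both removed (adjusted p = 0.136).

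**Figure D4:**
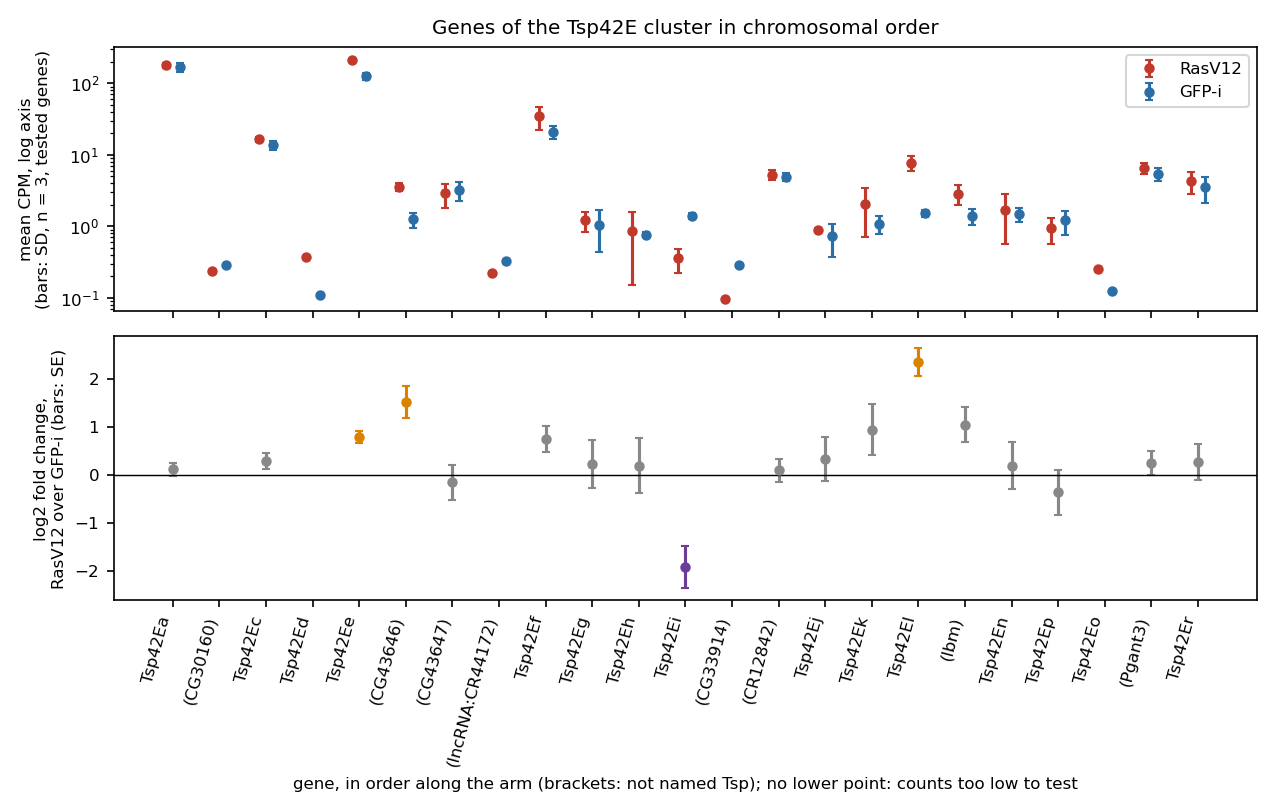
Genes of the Tsp42E array with a row in the count table, in chromosomal order, with other genes in brackets. Top, mean CPM on a log axis with the SD of 3 libraries for tested genes; bottom, log2 ratio with its standard error, where Tsp42Ee (0.78), CG43646 (1.51) and Tsp42El (2.35) rose and Tsp42Ei (-1.93) fell.

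Most genes between and beside these members did not pass. Tsp42Ei and Tsp42El are separated by 8819 bases, and Tsp42Ej and Tsp42Ek, which lie between them, did not pass, at log2 ratios of 0.32 and 0.94 (edgeR adjusted p = 0.701 and 0.292). Tsp42Ej, known as sunglasses for its role in rhodopsin turnover in the retina, had 13, 9 and 13 counts in RasV12 libraries and 15, 10 and 6 counts in GFP-i libraries. Tsp42Ek had 30, 7 and 48 counts in RasV12 libraries and 13, 24 and 11 counts in GFP-i libraries, and the groups overlapped for both genes. Tsp42Ej and Tsp42Ek overlap by 107 bases on the same strand, so reads there could belong to either. Downstream of Tsp42El by 699 bases lies lbm (late bloomer), a tetraspanin gene outside the name rule that is known from motor neuron synapse formation. It stood at 3.70, 2.91 and 1.94 CPM in RasV12 libraries and at 1.73, 1.06 and 1.36 CPM in GFP-i libraries, and its log2 ratio of 1.04 ± 0.37 did not pass (edgeR adjusted p = 0.096). TM4SF, the other tetraspanin outside the rule, stood at 0.02 (edgeR adjusted p = 0.9754).

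CG43646, which is no tetraspanin by name and starts 397 bases after Tsp42Ee on the same strand, had 57, 35 and 48 counts in RasV12 libraries, against 12, 24 and 19 counts in GFP-i libraries. It rose by 1.51 ± 0.33 (edgeR adjusted p = 0.013), which no longer passed without RasV12 library 1, GFP-i library 1 or GFP-i library 3 (adjusted p = 0.060, 0.053 and 0.057) and with RasV12 library 3 and GFP-i library 2 both removed (adjusted p = 0.070). The next gene along, CG43647, stood at -0.16 and did not pass (edgeR adjusted p = 0.818). Tsp42Ef averaged 34.5 ± 12.6 CPM in RasV12 cells and 20.6 ± 4.26 CPM in GFP-i cells (SD, n = 3). Its libraries did not overlap, at 28.2, 49.0 and 26.4 CPM in RasV12 against 22.6, 15.7 and 23.6 CPM in GFP-i, and the log2 ratio of 0.74 ± 0.26 did not pass (edgeR adjusted p = 0.098). Tsp42Ea, Tsp42Ec, Tsp42Eg, Tsp42Eh, Tsp42En, Tsp42Ep and Tsp42Er stood between -0.36 and 0.28 and did not pass. Their signs turned for Tsp42Ea, Tsp42Eg, Tsp42Eh, Tsp42En and Tsp42Er under some alternatives. Tsp42Eo lies within Tsp42Ep on the other strand, and how counting used strand is unstated, so the counts of both are uncertain.

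Outside the array, Tsp29Fa and Tsp29Fb are neighbours on 2L, and whether their changes differ was not tested. Tsp29Fa (FBgn0032074; 2L, 8933962 to 8936096, plus strand) stood at 58.6, 84.6 and 46.8 CPM in RasV12 libraries, against 30.3, 19.98 and 25.2 CPM in GFP-i libraries. It rose by 1.33 ± 0.24 (log2, SE; edgeR adjusted p = 0.0051), with the highest value in RasV12 library 2. Tsp29Fb, the next gene, stood at 7.91, 8.34 and 7.76 CPM in RasV12 libraries, against 6.47, 5.36 and 5.82 CPM in GFP-i libraries. These groups did not overlap either, but its log2 ratio of 0.44 ± 0.20 did not pass (interval -0.0025 to 0.89, edgeR adjusted p = 0.179). Tsp29Fa took 88.1, 91.0 and 85.8% of the counts of the pair in RasV12 libraries, against 82.4, 78.8 and 81.3% in GFP-i libraries. The 95% Wilson interval of RasV12 library 3 (83.2 to 88.1) overlapped those of GFP-i library 1 (78.8 to 85.5) and GFP-i library 3 (77.2 to 84.7).

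Tsp74F (FBgn0036769; 3L, 17891820 to 17895862, minus strand) was the most abundant member that fell. It stood at 63.2, 52.8 and 50.2 CPM in RasV12 libraries, against 102, 118 and 103 CPM in GFP-i libraries, with no overlap and a log2 ratio of -0.96 ± 0.14 (SE; edgeR adjusted p = 0.0014). Tsp96F stood at 10.7, 11.4 and 10.4 CPM in RasV12 libraries, against 16.6, 14.8 and 13.97 CPM in GFP-i libraries. All RasV12 libraries were lower, yet the log2 ratio of -0.48 ± 0.17 did not pass (edgeR adjusted p = 0.091), except with plain library-size scaling (adjusted p = 0.029).

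Tsp39D (FBgn0032943; 2L, 21344607 to 21358271, plus strand) stood at 37.0, 62.1 and 47.6 CPM in RasV12 libraries, against 27.8, 32.7 and 29.5 CPM in GFP-i libraries. The groups did not overlap, and the log2 ratio was 0.70 ± 0.19 (SE; edgeR adjusted p = 0.035). This was the least stable call, since it was kept without RasV12 library 1 (adjusted p = 0.021) and lost without RasV12 library 2 or 3 or GFP-i library 1, 2 or 3 (adjusted p = 0.063, 0.070, 0.157, 0.090 and 0.198). It was also lost with plain library-size scaling (0.106), without ribosomal RNA and mitochondrial rows (0.060) and with RasV12 library 3 and GFP-i library 2 both removed (0.153, adjusted p). Tsp39D, Tsp29Fa and Tsp42Ef all had their highest value in RasV12 library 2. So had the other members that rose, Tsp42Ee, Tsp42El and Tsp5D, and some that did not pass, Tsp29Fb and Tsp97E among them. This was the library with the fewest counts and with 5.31% of counts on mitochondrial rows, against 2.165 to 3.85% in the other libraries. Without that library the log2 ratios of Tsp39D, Tsp29Fa and Tsp42Ef were 0.49, 1.07 and 0.41. Those of Tsp42Ee and Tsp5D were 0.77 and 1.66, and the part of the library's mitochondrial share was not tested.

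Tsp5D (FBgn0029837; X, 6069131 to 6074857, minus strand) was scarce, with 31, 26 and 30 counts in RasV12 libraries, against 11, 8 and 10 counts in GFP-i libraries. Tsp5D reached the filter's level in 3 RasV12 libraries and in 2 GFP-i libraries, so its higher value is a description. The groups did not overlap, at 2.26 ± 0.179 CPM in RasV12 libraries, against 0.685 ± 0.188 CPM in GFP-i libraries (SD, n = 3). The log2 ratio was 1.72 ± 0.38 (SE; edgeR adjusted p = 0.013), which no longer passed without RasV12 library 1, GFP-i library 2 or GFP-i library 3 (adjusted p = 0.051, 0.064 and 0.066) and with RasV12 library 3 and GFP-i library 2 both removed (adjusted p = 0.103).

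**Figure D5:**
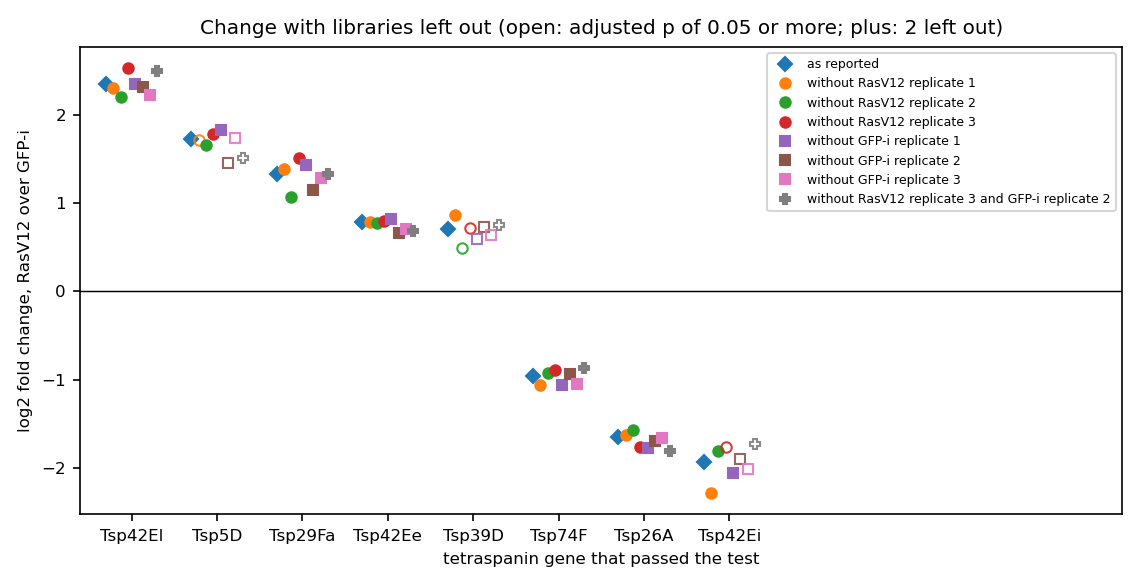
Log2 fold change of RasV12 over GFP-i for the 8 members that passed the test, with all libraries (diamond) and with 1 or 2 libraries left out. Open symbols mark an adjusted p of 0.05 or more, which occur for Tsp39D, Tsp5D and Tsp42Ei, and no value changes sign.

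The abundant gene Tsp66E stood at 90.7, 78.6 and 109 CPM in RasV12 libraries and at 77.6, 100.5 and 95.4 CPM in GFP-i libraries. The groups overlapped fully, and the log2 ratio was 0.03 with an interval of -0.33 to 0.39 (edgeR adjusted p = 0.935), a value whose sign turned under several alternatives, size factors among them. Tsp97E stood at 30.9, 31.02 and 25.4 CPM in RasV12 libraries and at 27.8, 20.7 and 25.99 CPM in GFP-i libraries, and its log2 ratio of 0.23 did not pass (edgeR adjusted p = 0.428). Tsp47F and Tsp2A, at 2.87 and 1.25 CPM in RasV12 cells and 2.15 and 0.798 CPM in GFP-i cells, had log2 ratios of 0.41 and 0.62 and did not pass (edgeR adjusted p = 0.422 and 0.482). Tsp2A lies inside CG11418 on the other strand, a gene with a mean of 118 counts against 14.5 for Tsp2A, so its value is uncertain. Without GFP-i library 2 its log2 ratio was 1.30, and 0.28, 0.32 and 0.33 without GFP-i library 3, RasV12 library 1 and GFP-i library 1. The untested members Tsp33B, Tsp42A, Tsp42Ed, Tsp42Eo and Tsp68C had 0 to 14 counts per library. Without a filter none of these 5 passed (edgeR adjusted p = 0.376 to 0.885).

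Standard errors were in overlapping ranges at neighbouring levels. The 11 members with a mean of at least 10 CPM had standard errors of 0.13 to 0.26 on the log2 scale, the 5 members at 3 to 10 CPM had 0.20 to 0.37, and the 10 members under 3 CPM had 0.31 to 0.58. In 12 of 26 tested members the RasV12 libraries lay wholly above (8) or wholly below (4) the GFP-i libraries, which was so for 33.6% of all tested genes.

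Integrins are classic partners of tetraspanins in the membrane. Of 12 tested genes of integrins and integrin adhesion 4 rose, 1 fell and 7 did not pass, where 9.15% of all tested genes rose and 5.68% fell. The median log2 ratio of the list was 0.66, against 0.02 over all tested genes. Without RasV12 library 2 it was 0.15, over 13 genes, since Itgbetanu, too low to test with all libraries, then had a value. The median also covered 13 genes with no filter and without GFP-i library 1, where it was 0.59 and 0.56. The talin gene rhea, which links integrins to actin, averaged 109.8 ± 16.7 CPM in RasV12 cells and 47.5 ± 4.66 CPM in GFP-i cells (SD, n = 3), a log2 ratio of 1.21 ± 0.15 (SE; edgeR adjusted p = 5.6e-04). The alpha subunit gene scb rose by 1.19 ± 0.16 and the beta subunit gene mys by 0.68 ± 0.13 (edgeR adjusted p = 9.1e-04 and 0.0057), and the mys call was lost with RasV12 library 3 and GFP-i library 2 both removed (adjusted p = 0.080). The alpha subunit gene if, a ventral marker, rose by 0.78, while mew, another alpha subunit gene and a dorsal marker, fell by 0.68 on the log2 scale. The call of if was lost without RasV12 library 1 or 3 or GFP-i library 1 or 3 (adjusted p = 0.056 to 0.138) and with plain library-size scaling (adjusted p = 0.062), and that of mew without RasV12 library 1 (adjusted p = 0.056). Ilk and ItgalphaPS4 stood at 0.76 and 0.81 and did not pass (edgeR adjusted p = 0.065 and 0.138).

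Genes of the ESCRT machinery, which sorts tetraspanin-rich membrane into multivesicular endosomes, and of vesicle release had positive fold changes in 13 of 14 cases, against 51.7% of all tested genes. Of these 14 genes 4 rose, 0 fell and 10 did not pass, beside 9.15% and 5.68% of all tested genes that rose and fell. The median log2 ratio was 0.53, against 0.02 over all tested genes, and it was 0.37 with plain library-size scaling. That scaling moved the median of all genes by -0.16. The positive values of Rab11, Vps25 and Rab35, at 0.02, 0.09 and 0.14, were smaller than this shift. The ESCRT-associated gene ALiX averaged 131 ± 12.1 CPM in RasV12 cells and 75.9 ± 5.14 CPM in GFP-i cells (SD, n = 3), a log2 ratio of 0.79 ± 0.13 (SE; edgeR adjusted p = 0.0028). The ESCRT-III subunit gene shrb stood at 51.8, 51.9 and 52.4 CPM in RasV12 libraries, against 31.2, 31.8 and 30.5 CPM in GFP-i libraries, with a very small spread within each group (log2 ratio 0.74 ± 0.13, edgeR adjusted p = 0.0036). The ESCRT-I subunit genes TSG101 and Vps28 rose by 0.81 and 0.67 (edgeR adjusted p = 0.019 and 0.0396). TSG101 lost its call without any 1 of the GFP-i libraries 1, 2 or 3 (adjusted p = 0.063, 0.078 and 0.1497), and Vps28 without any library but RasV12 library 2 (adjusted p = 0.063 to 0.164). Both also lost it with plain library-size scaling (adjusted p = 0.056 and 0.080) and with RasV12 library 3 and GFP-i library 2 both removed (0.068 and 0.187, adjusted p), so ALiX and shrb kept their calls in every alternative run and these 2 genes did not. Rab7 and Rab27 stood at 0.65 and 0.63 and did not pass (edgeR adjusted p = 0.103 and 0.122).

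No septate junction gene passed. Of 13 genes of the pleated septate junction and claudin-like proteins 0 rose and 0 fell by edgeR's quasi-likelihood test, with a median of -0.07, and the lowest p belonged to l(2)gl and cora, at log2 ratios of 0.41 and -0.40 (edgeR adjusted p = 0.060 and 0.109). These 2 genes had an unadjusted p under 0.05, and DESeq2 and limma-voom called 0. Other alternatives did call a gene of this list. With plain library-size scaling 1 fell, and 1 rose with the filter of 10 CPM in 3 libraries or without RasV12 library 2. Of the smooth septate junction partners of Tsp2A, mesh stood at 1.83 ± 0.478 CPM in RasV12 cells and 2.48 ± 0.340 CPM in GFP-i cells and did not pass (edgeR adjusted p = 0.451), and Ssk had counts too low to test.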

How the data were processed

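RNA from sorted wing disc cells was measured in 6 libraries, 3 RasV12 and 3 GFP-i, as 100 nucleotide single reads from transcript 3' ends, per the labels. The submitters' processing notes name Trimmomatic 0.33, STAR 2.3.0e, bedtools 2.17, FastQC, DESeq2 and the dm6 build. For the counting step, the program, annotation and strand setting were not given in the sources used here. Raw counts per gene are what the authors deposited. Per the file headers the same table holds the authors' mean signal (baseMean), log2 fold changes, a test statistic (score), p-values and a call, used only where the authors' table is named.

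Gene names came from the table (11741) or the symbol table (2474), and 18 IDs had none. Counts were tested over the whole table with edgeR 4.0.16 in R 4.3.3 (TMM, filterByExpr with a minimum count of 10, robust quasi-likelihood test, 2 groups, Benjamini-Hochberg adjustment, threshold 0.05), on 9134 genes, after a test on simulated data. Intervals of fold changes are 95% intervals. Folds of members come from the fitted log2 values. Alternatives used DESeq2 1.42.0, limma 3.58.1, other scalings and filters, a replicate block and libraries left out. Ribosomal RNA rows took 11.7 to 18.6% of counts. Members and lists were chosen with earlier results of these data known. Values are given by library for members that passed and for the 4 others with the lowest p, and for further members beside a result; each list is named by up to 4 genes that passed in each direction and 2 that did not. Same-numbered replicates did not deviate together. Tsp42Eb, Tsp42Eq and Tsp66A are not analysed here.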

Additional observations from a re-analysis of the deposited data

How the results depend on the processing

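Of the 8 tetraspanins that passed, 5 kept their call in each of the 16 alternatives in which they had a value. These were Tsp42Ee, Tsp29Fa, Tsp42El, Tsp26A and Tsp74F. The highest edgeR adjusted p was near the threshold for Tsp29Fa, at 0.049 with 1 library left out. For Tsp42Ee it was 0.045, without RasV12 replicate 3 and GFP-i replicate 2. The call was lost in at least 1 alternative by 3 members, and 0 changed sign. The cause of each loss was not tested. The count of members that rose was 5, and 3 with a filter of 10 CPM in 3 libraries, which leaves fewer genes, 3 with the replicate block, 3 with RasV12 replicate 3 and GFP-i replicate 2 both left out, and 3 to 4 with 1 library left out. The count that fell was 3, and 2 with that filter, 2 with the block, 2 without both libraries and 2 to 3 with 1 library left out. Of the members 4 rose and 4 fell with library size only, and 4 rose and 3 fell without ribosomal RNA and mitochondrial rows. Over all genes 836 rose and 519 fell; with the block 480 rose and 221 fell, without the 2 libraries 436 and 242, and with 1 library left out 437 to 943 and 297 to 578. Scaling by library size only moved the median of all genes by -0.16 on the log2 scale, and 615 genes rose and 911 fell.

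In the Notch processing list 2 rose, and 1 with library size only, 1 with the block, 1 without the 2 libraries and 1 to 3 with 1 library left out. In the ESCRT list 4 rose, and 2, 2, 2 and 2 to 5 in the same order. In the integrin list 4 rose, and 3 with the block, 3 with library size only and 3 to 5 with 1 library left out, and 1 fell, and 0 with the block and 0 to 1 with 1 library left out. In the pleated septate list 1 fell with library size only, 1 rose with the 10 CPM filter, and 0 to 1 rose with 1 library left out.

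Of the 18 members that did not pass, 8 changed sign. With library size only the log2 fold change was -0.052 for Tsp42Ea, -0.13 for Tsp66E and -0.020 for Tsp86D. Without the 2 libraries it was -0.03 for Tsp42Ea, -0.14 for Tsp42Eg, -0.07 for Tsp66E 0.06 for Tsp3A, 0.716 for Tsp42En and 0.674 for Tsp42Er. With limma-voom it was -0.11 for Tsp42Eh and -0.059 for Tsp42En, and with the block -0.033 for Tsp42Eh. Tsp66E stood at -0.0015 with size factors, -0.0062 with DESeq2, -0.032 with no filter and -0.026 without ribosomal RNA and mitochondrial rows. With 1 library left out the values ran from -0.042 to 0.17 for Tsp42Ea, -0.16 to 0.71 for Tsp42Eg, -0.46 to 0.56 for Tsp42En, -0.069 to 0.50 for Tsp42Er, -0.14 to 0.13 for Tsp66E, -0.040 to 0.29 for Tsp86D and -0.24 to 0.14 for Tsp3A.

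The replicate numbers share only a label: same-numbered libraries had correlations of deviations of -0.034, -0.424 and -0.112, and 0 libraries correlated best with their own number. With the block the adjusted p was 0.062 for Tsp5D, 0.069 for Tsp39D, 0.068 for Tsp42Ei, 0.071 for CG43646, 0.088 for neur, 0.085 for if, 0.052 for mew, 0.055 for TSG101 and 0.094 for Vps28, and the block changed no other call of a tetraspanin or partner gene named as passing. Members under 3 CPM had standard errors of 0.31 to 0.58 on the log2 scale, and 2 of these 10 passed.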
